A study of Mus musculus with 9 samples.

Results

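The genes described here are 47 imprinted genes of the mouse, chosen by name as members of 19 known imprinted clusters or single imprinted loci. A gene of the deposited count tables was taken where its Ensembl identifier carried one of the 47 symbols in the GENCODE mouse annotation of GRCm38. The tables of 43629 genes held 46 of them, and 40 of the 16561 genes with enough reads to be tested were imprinted genes of this list. Their RNA was counted in cells of the embryonic heart after knockdown of DNMT3a or DNMT3b, the enzymes that place new methyl groups on DNA.

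The cells were grown from ventricles of embryos of the outbred CD-1 mouse, taken at embryonic day 13.5 and pooled within each litter. All 9 samples went through the same steps: removal of fast-attaching cells, 48 h of growth, lipofection with 0.012 pmol of siRNA, and harvest 72 h later with magnetic sorting on the surface protein VCAM1. The 3 groups, each of 3 poly(A) RNA libraries numbered 1 to 3, differed in the siRNA: a commercial negative control, a pool of 4 siRNAs against DNMT3a, or a pool of 4 against DNMT3b. Nothing in the labels ties the libraries of a group to different litters or dishes, so the p-values speak only of the scatter among these libraries, which may be technical.

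Imprinted genes are transcribed mainly from the maternal or mainly from the paternal chromosome. The choice is written in the germ line as DNA methylation of a control region on 1 parental copy, called a germline differentially methylated region, and DNMT3A with its cofactor DNMT3L places most of these marks there. After fertilisation the marks are copied at each cell division by DNMT1 and UHRF1 and protected by zinc-finger proteins such as ZFP57, which recruit TRIM28. Many imprinted genes act on fetal growth, with paternally expressed genes such as Igf2 promoting it and maternally expressed genes such as Igf2r, Grb10 and Cdkn1c restraining it. The libraries give the total RNA of both alleles. They hold neither allele-specific reads nor methylation, and the expressed allele named for each gene is textbook annotation.

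Each library held between 27852412 and 35896018 reads in genes. The knockdowns lowered their own targets: Dnmt3a stood at 232, 270 and 275 CPM (the read count scaled to a common library depth by the TMM method) in the control libraries and at 40.3, 52.9 and 46.3 CPM with DNMT3a siRNA. Dnmt3b stood at 4.32, 4.26 and 4.33 CPM in controls, against 1.17, 2.43 and 1.51 CPM with DNMT3b siRNA, a fall that missed the threshold without library DNMT3b 3 (adjusted p = 0.0538). All 10 cardiomyocyte markers of a list taken for the labelled cell type were detected in every library. Their summed level was 2141 to 2698 CPM in controls, 4730 to 6066 CPM with DNMT3a siRNA and 5831 to 6858 CPM with DNMT3b siRNA. In edgeR, at an adjusted p under 0.05, 8 of the 10 were higher in each knockdown. Of all tested genes 4.87% were higher with DNMT3a siRNA and 3.52% with DNMT3b siRNA. The 10 fibroblast markers were detected in every library too. They summed to 39128 to 58708, 39569 to 43248 and 37478 to 44272 CPM in the same order. At the same threshold 5 of 10 were lower after DNMT3a siRNA, beside 5.22% of all tested genes. After DNMT3b siRNA 3 of 10 were lower, beside 2.12%. The 8 macrophage markers summed to 17.3 to 46.6, 6.66 to 13.3 and 13.8 to 28.7 CPM. Of these 3 were lower after DNMT3a siRNA and 0 after DNMT3b siRNA. The 8 epicardial markers summed to 2136 to 2577, 1469 to 2058 and 1450 to 2055 CPM, the 8 smooth muscle markers to 5946 to 8557, 8232 to 9355 and 8515 to 10060 CPM, and the 8 endothelial markers to 96.3 to 126, 86.4 to 130 and 149 to 162 CPM. The 8 neural markers summed to 72.8 to 132, 107 to 135 and 44.4 to 67.5 CPM, and of all these lists only their Sox10 and Th were at 0 in some library. Of the epicardial markers 3 were lower and 1 higher after DNMT3a siRNA, and 2 were lower after DNMT3b siRNA. After DNMT3b siRNA 1 smooth muscle and 1 endothelial marker were higher. The share of alignments that were not unique was 36.6% to 40.1% after DNMT3a siRNA, below the 41.3% to 42.5% of controls. The part of these differences in the results for imprinted genes was not tested, and in such bulk samples fewer cells of a type and less RNA per cell cannot be told apart.

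Imprinted growth genes were among the most abundant transcripts of these cultures. Per kilobase of annotated exon, H19, a maternally expressed noncoding RNA of the fetus, averaged 633 CPM per kb in controls and ranked 26 of the 16561 tested genes. Cd81, a tetraspanin surface protein, followed at 262 CPM per kb, and Igf2, the fetal insulin-like growth factor, stood at 228 CPM per kb. Grb10, an adaptor that damps insulin and growth factor receptors, stood at 197 CPM per kb. Igf2r, the receptor that takes up IGF2 for breakdown, reached 120 CPM per kb, and Plagl1, a zinc-finger regulator of other imprinted genes, reached 114 CPM per kb. Peg3 (54.0 CPM per kb) and Dlk1 (45.4 CPM per kb) came next in this order. Several of these neighbours in rank did not separate: the lowest H19 library lay within the range of Igf2, whose 3 control libraries differed by 3.87-fold.

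At the other end, 6 members had too few reads to be tested, with 24 reads over all 9 libraries for Slc22a3, 8 for Dio3, 18 for Phlda2, 32 for Ascl2, 44 for Magel2 and 22 for Rasgrf1. Most of these are known for placenta or brain: Phlda2 restrains placental growth, Ascl2 is a trophoblast transcription factor, Slc22a3 is an organic cation transporter and Magel2 acts in the hypothalamus. Dio3 inactivates thyroid hormone, and Rasgrf1 is a Ras exchange factor of neurons. Peg13 was not analysed here. The least abundant tested member was Usp29, a ubiquitin protease gene, at 0.0156 CPM per kb in controls.

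**Figure D1:**
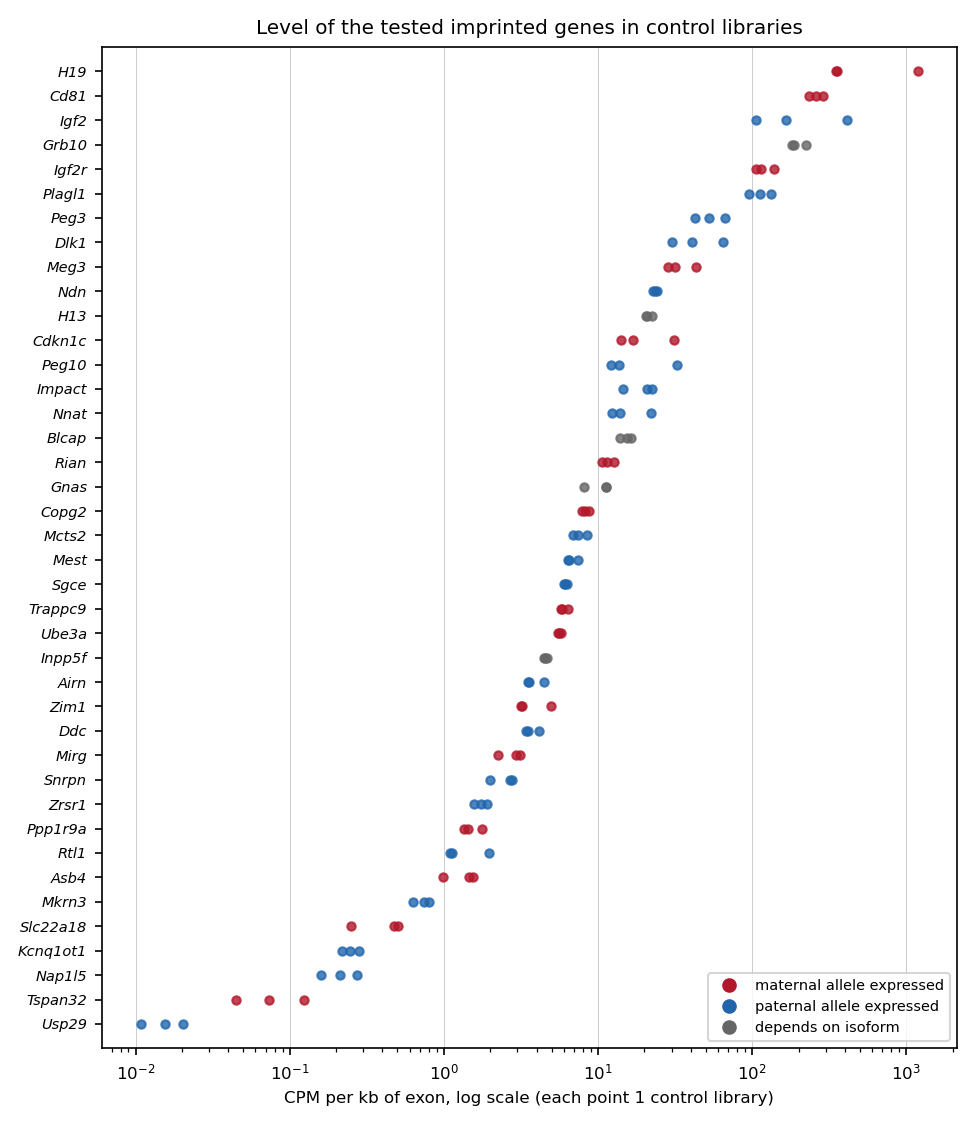
Levels of the 40 tested imprinted genes in the 3 control libraries, in CPM per kilobase of exon on a log axis, 1 point per library, coloured by the allele that is expressed. H19 leads at a mean of 633 CPM per kb and Usp29 is lowest at 0.0156 CPM per kb, and maternally and paternally expressed genes are interleaved over the range.

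In either knockdown the share of imprinted genes called was not far from that over all tested genes. Among the called members only Mest and Copg2 belonged to the same cluster. With DNMT3a siRNA 3 of the 40 tested members passed the threshold of an adjusted p under 0.05, where 10.1% of all tested genes did (4.87% higher, 5.22% lower): Copg2 and Kcnq1ot1 rose and H13 fell. With DNMT3b siRNA 2 of 40 passed, where 5.64% of all tested genes did (3.52% higher, 2.12% lower): Mest and Ddc, both higher. In this unpaired fit over all 9 libraries neither share of the members exceeded that over all tested genes. The median log2 fold change of the 40 members was 0.01 with DNMT3a siRNA and 0.05 with DNMT3b siRNA, beside 0.02 and 0.00 over all tested genes. Libraries of the 2 groups did not overlap for 10 of 40 members with DNMT3a siRNA, where 26.7% of all tested genes did not overlap, and for 12 of 40 with DNMT3b siRNA, where the share was 26.1%. The 2 comparisons share the 3 control libraries.

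Between the knockdowns themselves, 5 of 40 members differed, where 9.55% of all tested genes did (4.47% higher and 5.08% lower with DNMT3a siRNA). Copg2 and Blcap were higher with DNMT3a siRNA, and Mest, Ddc and Igf2r were higher with DNMT3b siRNA. Groups did not overlap for 16 of 40 members, beside 32.3% of all tested genes. These counts were small and moved with single libraries. With DNMT3a siRNA the count fell to 1 without DNMT3a 3, where 1038 of 16900 tested genes were called. It rose to 5 without DNMT3a 2, where 1494 of 16879 were called. With DNMT3b siRNA the count fell to 1 without control 1 (534 of 16922 tested genes called), DNMT3b 2 (384 of 16842) or DNMT3b 3 (287 of 16831). It rose to 5 without DNMT3b 1 (956 of 16944) or without DNMT3a 2 (1116 of 16879), a library that enters this comparison only through the shared estimate of the spread. Between the knockdowns the count was 1 without DNMT3a 1 (541 of 16942 tested genes called) or DNMT3a 3 (768 of 16900), and 3 without DNMT3b 1 (1088 of 16944). It was 0 without DNMT3b 2 (524 of 16842) or DNMT3b 3 (555 of 16831), where edgeR still gave 9 and 11 members an unadjusted p under 0.05. With no library left out, 11 of 40 members and 4188 of 16561 tested genes had such a p. The libraries numbered 2 were high in several members, and without all 3 of them the counts were 5, 4 and 10. Of all tested genes 7.79%, 7.65% and 9.24% were called there, so that here the members' share was the higher in each comparison. With DNMT3b siRNA it was only slightly the higher. These libraries were singled out by the members' own values. Results without them, here and for single genes below, are thus descriptions and give no support.

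Libraries that carry the same number in the control and DNMT3a groups deviated together from their group means, so this comparison was also fitted with the number as a block. This fit, called the paired fit here, held all 9 libraries. The DNMT3b libraries, whose numbers are not taken as pairs, thus also entered its number terms and its estimate of the spread. In that paired fit 7 of 40 members changed with DNMT3a siRNA, 2 higher and 5 lower, where 14.3% of all tested genes changed (6.79% higher, 7.52% lower). The members' share was only slightly the higher. Dlk1, Zim1, Impact and Plagl1 joined H13 among the members that fell, and Copg2 and Kcnq1ot1 stayed past the threshold. Blcap, at an adjusted p of 0.0510, missed it.

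The absence of a call does not show that a gene stayed level. The 95% interval of the fold change lay within 2-fold in both directions for 29 of 40 members with DNMT3a siRNA and for 27 of 40 with DNMT3b siRNA, beside 73.8% and 74.9% of all tested genes. For 35 and 31 members respectively the interval's upper bound lay below a 2-fold rise. The widest intervals belonged to H19, Igf2 and Peg10, whose libraries varied most among abundant members, and to thinly read genes such as Usp29, Tspan32, Slc22a18 and Nap1l5.

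**Figure D2:**
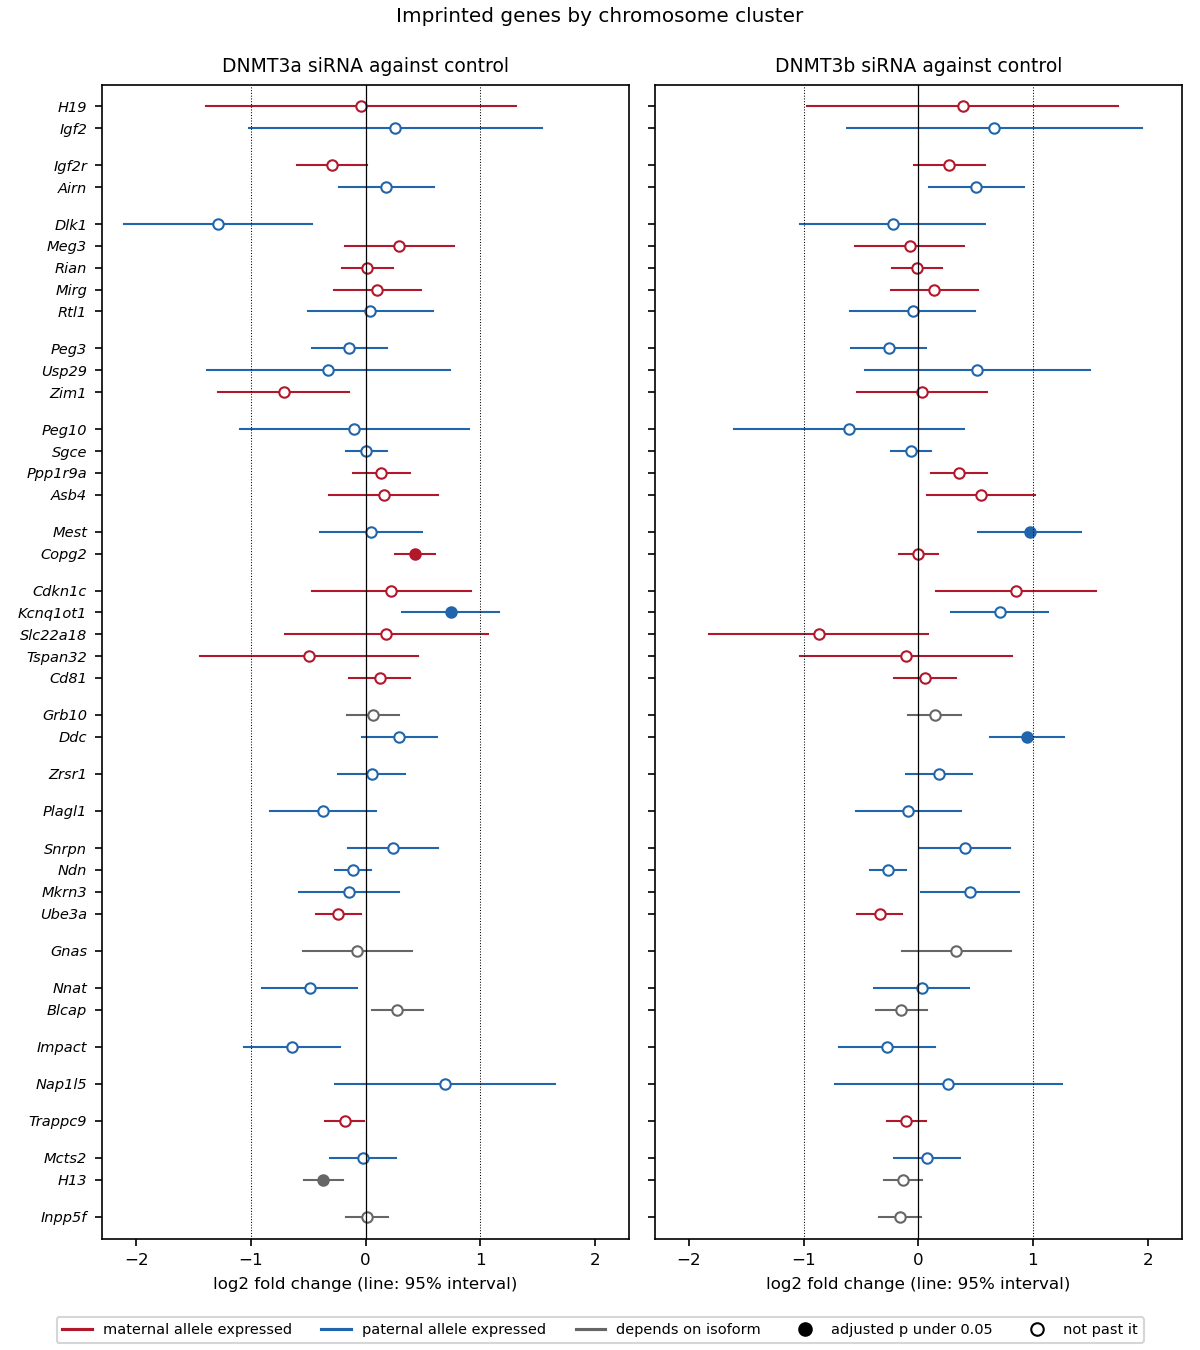
Log2 fold change of each tested imprinted gene against control, with its 95% interval, by cluster and coloured by expressed allele, and filled where the adjusted p is under 0.05. Filled points are Copg2, Kcnq1ot1 and H13 in the DNMT3a panel and Mest and Ddc in the DNMT3b panel, and dotted lines mark a 2-fold change each way.

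Mest and Copg2, tail-to-tail neighbours on chromosome 6 with opposite expressed alleles, each changed with a different knockdown. Mest (ENSMUSG00000051855, GRCm38 chromosome 6, 30723547 to 30748465, plus strand) is a paternally expressed gene of mesoderm that encodes a hydrolase-like protein. Copg2 (ENSMUSG00000025607, chromosome 6, 30747554 to 30896794, minus strand) encodes a subunit of the coat of transport vesicles between Golgi and endoplasmic reticulum. The promoter of Mest lies in the germline control region of the cluster and that of Copg2 does not, so their start regions, from RefSeq on GRCm38.p6, are shown with the ZFP57 recognition hexamer in capitals. The hexamer is TGCCGC, or GCGGCA where it lies on the other strand, and each window runs from 250 bases before to 50 bases after the annotated start.
Mest promoter, chr6:30737800-30738099, plus strand: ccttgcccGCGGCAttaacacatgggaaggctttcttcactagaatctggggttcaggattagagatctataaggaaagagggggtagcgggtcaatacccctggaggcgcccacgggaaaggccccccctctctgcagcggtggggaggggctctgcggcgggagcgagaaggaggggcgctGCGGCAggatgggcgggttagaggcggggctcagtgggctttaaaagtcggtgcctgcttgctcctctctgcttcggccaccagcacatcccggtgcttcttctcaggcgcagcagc
Copg2 promoter, chr6:30896745-30897044, minus strand: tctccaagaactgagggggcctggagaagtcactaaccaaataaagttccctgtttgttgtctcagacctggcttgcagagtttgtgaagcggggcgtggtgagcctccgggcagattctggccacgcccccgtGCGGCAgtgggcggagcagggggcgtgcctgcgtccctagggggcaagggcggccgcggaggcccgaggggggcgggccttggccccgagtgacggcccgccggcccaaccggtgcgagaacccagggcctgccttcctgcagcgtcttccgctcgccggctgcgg
The Mest window held 17 CpG dinucleotides and 2 hexamers, and the Copg2 window held 25 CpG dinucleotides and 1 hexamer.

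Mest stood at 25.6, 29.4 and 25.3 CPM in controls, 20.2, 34.5 and 28.3 CPM with DNMT3a siRNA, and 40.1, 57.3 and 60.0 CPM with DNMT3b siRNA. All 3 DNMT3b libraries lay above every other library. The mean rose from 26.8 ± 2.29 to 52.4 ± 10.8 CPM (SD, n = 3), a 1.96-fold rise (log2 0.97 ± 0.20 SE, adjusted p = 0.0211). With DNMT3a siRNA Mest had a log2 fold change of 0.05 ± 0.20 (adjusted p = 0.922), and the direct comparison of the knockdowns gave -0.92 ± 0.20 (adjusted p = 0.0208). The Mest rise missed the threshold without control 1 (adjusted p = 0.0845), control 3 (0.0928), DNMT3b 2 (0.0901) or DNMT3b 3 (0.106). The difference between the knockdowns missed it without DNMT3a 1 (0.0520), DNMT3a 3 (0.0673), DNMT3b 2 (0.0849) or DNMT3b 3 (0.0813).

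Copg2 showed the reverse pattern. It stood at 40.4, 45.0 and 42.0 CPM in controls, 55.0, 56.9 and 60.0 CPM with DNMT3a siRNA, and 44.5, 41.6 and 41.5 CPM with DNMT3b siRNA. The 3 DNMT3a libraries lay above the 6 others, and the mean rose 1.35-fold (log2 0.43 ± 0.08 SE, adjusted p = 0.00670), which held under all 18 alternatives. With DNMT3b siRNA the fold change was 0.00 ± 0.08 (adjusted p = 0.994, 95% interval -0.17 to 0.17), and the knockdowns differed by 0.43 ± 0.08 (adjusted p = 0.00856). That last difference missed the threshold without DNMT3b 2 (0.0503) or DNMT3b 3 (0.0512). The annotated spans of the 2 genes overlap by 912 bases at their 3′ ends on opposite strands, and the strand setting of the counting is not given in the sources used here.

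**Figure D3:**
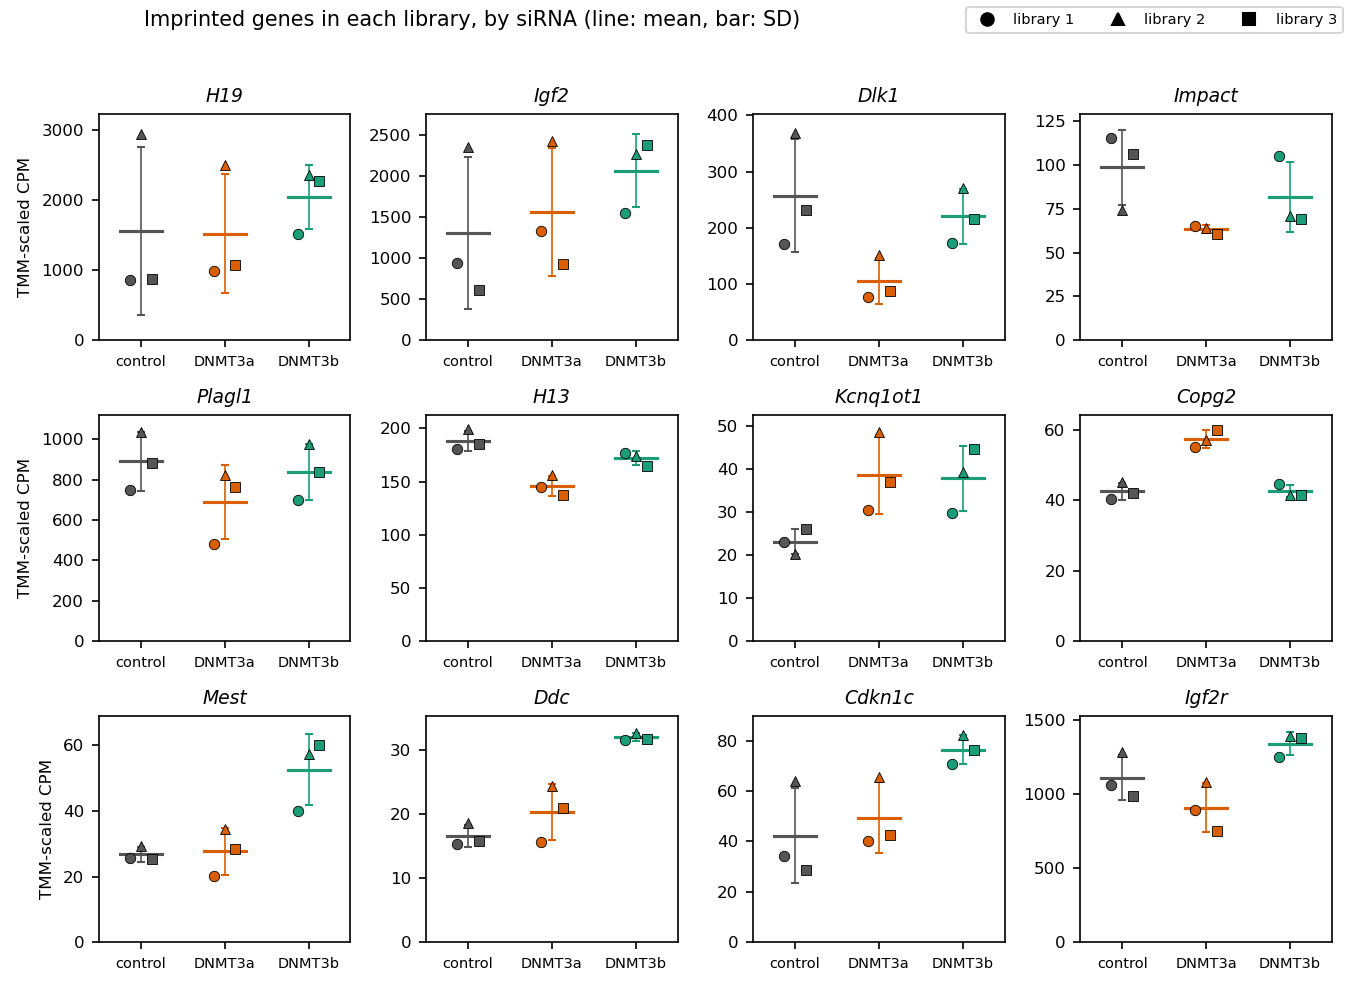
TMM-scaled CPM of 12 imprinted genes in each of the 9 libraries, with the mean (line) and SD (bar) of each siRNA group and a marker shape for the library number. Mest and Ddc are high in all 3 DNMT3b libraries, Copg2 in all 3 DNMT3a libraries, and H19 and Igf2 are high in the control and DNMT3a libraries numbered 2.

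In the Kcnq1 domain on chromosome 7, the noncoding RNA Kcnq1ot1 rose with DNMT3a siRNA and had a value of like size with DNMT3b siRNA that missed the threshold. Kcnq1ot1 (ENSMUSG00000101609, chromosome 7, 143203458 to 143296549, minus strand) is transcribed from the paternal allele, starts in the domain's germline control region, and silences its neighbours in cis. Its start region is shown because it is the only member that starts in a control region and passed with DNMT3a siRNA in the unpaired fit, and it held 9 CpG dinucleotides and no hexamer.
Kcnq1ot1 promoter, chr7:143296498-143296797, minus strand: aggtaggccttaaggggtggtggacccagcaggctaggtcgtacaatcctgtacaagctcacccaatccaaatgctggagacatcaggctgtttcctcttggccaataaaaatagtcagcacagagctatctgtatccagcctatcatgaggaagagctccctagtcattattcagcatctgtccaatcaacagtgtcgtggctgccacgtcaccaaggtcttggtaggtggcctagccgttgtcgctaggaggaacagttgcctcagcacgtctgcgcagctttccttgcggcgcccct
Kcnq1ot1 stood at 22.9, 20.2 and 26.1 CPM in controls, 30.5, 48.5 and 36.8 CPM with DNMT3a siRNA, and 29.7, 39.2 and 44.4 CPM with DNMT3b siRNA. Every knockdown library exceeded every control library. The rise was 1.67-fold with DNMT3a siRNA (log2 0.74 ± 0.19 SE, adjusted p = 0.0364; 0.0157 in the paired fit). The value with DNMT3b siRNA was close in size (log2 0.71 ± 0.19) but missed the threshold (adjusted p = 0.0602), which it passed without DNMT3a 1 (0.0428), DNMT3a 2 (0.0287) or DNMT3b 1 (0.0314) and in DESeq2 (0.00646), and the knockdowns differed by 0.03 ± 0.19 (adjusted p = 0.937, 95% interval -0.39 to 0.45).

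The Kcnq1ot1 call with DNMT3a siRNA was among the least stable. It missed the threshold without control 1 (adjusted p = 0.0978), control 2 (0.0868), control 3 (0.0606), DNMT3a 2 (0.0907), DNMT3a 3 (0.0771) or DNMT3b 2 (0.0621), and without all libraries numbered 2 (0.219, log2 fold change 0.45). Kcnq1, the potassium channel gene that loses its imprint in the developing heart, covers the whole Kcnq1ot1 transcript on the opposite strand. Kcnq1 averaged 2.59 ± 1.21 CPM in controls, 10.2 ± 1.12 CPM with DNMT3a siRNA and 11.6 ± 1.65 CPM with DNMT3b siRNA (SD, n = 3), a 3.94-fold rise (log2 1.98 ± 0.29 SE, adjusted p = 0.00247) and a 4.50-fold rise (log2 2.17 ± 0.29 SE, adjusted p = 0.00239). If the counting ignored strand, unspliced Kcnq1 RNA and Kcnq1ot1 cannot be told apart. Of 178 genes that lie wholly under opposite-strand exons of a gene with at least 1000 reads, 87.1% had 0 counts in all libraries, beside 26.2% of all genes. Such zeros arise where strand is ignored and reads on exons of 2 genes are set aside as ambiguous. They arise as well where the covered gene has no RNA, so this share does not settle the strand setting.

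No other member of the domain passed in the unpaired edgeR fit over all 9 libraries. DESeq2 called Cdkn1c as higher with DNMT3b siRNA (adjusted p = 0.0199), as did edgeR with the library number as a block (0.0101). Cdkn1c, the maternally expressed inhibitor of cyclin-dependent kinases, stood at 34.2, 63.8 and 28.9 CPM in controls, 40.0, 65.6 and 42.8 CPM with DNMT3a siRNA, and 70.8, 82.4 and 76.1 CPM with DNMT3b siRNA. Its DNMT3b libraries lay above all others, with a log2 fold change of 0.85 ± 0.30 (adjusted p = 0.150). The high control library was number 2: without control 2 the value was 1.27 (adjusted p = 0.00633), and without all libraries numbered 2 it was 1.21 (0.000714). The knockdowns then differed as well (log2 -0.83, adjusted p = 0.00530 without the libraries numbered 2). Cd81 was at 676 to 835 CPM in controls, with log2 fold changes of 0.12 ± 0.12 and 0.06 ± 0.12 for DNMT3a and DNMT3b siRNA. Slc22a18, an organic cation transporter gene, and Tspan32, a tetraspanin gene of blood cells, stayed under 1 CPM in every library.

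H13 fell with DNMT3a siRNA while Mcts2, the imprinted gene inside it, had a value near 0. H13 (ENSMUSG00000019188, chromosome 2, 152669461 to 152708670, plus strand) encodes signal peptide peptidase, a protease of the endoplasmic reticulum membrane. Mcts2 (chromosome 2, 152687035 to 152687946) is a paternally expressed retrocopy of Mcts1 that lies in an H13 intron, and its methylated promoter sets which H13 polyadenylation sites the 2 parental alleles use. The H13 start region held 21 CpG dinucleotides and no hexamer, and it is shown as that of the only member that fell in the unpaired fit.
H13 promoter, chr2:152669211-152669510, plus strand: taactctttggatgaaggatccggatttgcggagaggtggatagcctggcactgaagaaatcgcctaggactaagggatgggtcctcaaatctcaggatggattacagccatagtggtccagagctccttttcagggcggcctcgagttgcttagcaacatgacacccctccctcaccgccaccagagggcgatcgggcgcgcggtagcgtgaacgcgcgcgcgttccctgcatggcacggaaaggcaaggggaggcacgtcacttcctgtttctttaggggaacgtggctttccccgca
H13 stood at 181, 199 and 186 CPM in controls, 145, 156 and 138 CPM with DNMT3a siRNA, and 177, 174 and 165 CPM with DNMT3b siRNA. The DNMT3a libraries were the 3 lowest of the 9. The mean was 1.29-fold lower with DNMT3a siRNA (log2 -0.37 ± 0.08 SE, adjusted p = 0.0128; 0.00717 in the paired fit), and the call was lost without DNMT3a 1 (0.0537) or DNMT3a 3 (0.0535). With DNMT3b siRNA the value was -0.13 ± 0.08 (adjusted p = 0.348). Mcts2 had log2 fold changes of -0.02 ± 0.13 and 0.07 ± 0.13. Mcts2 resembles its parent gene Mcts1, and how reads matching both were counted is unknown, so its level is uncertain.

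The Dlk1 and Meg3 domain of chromosome 12 held the largest difference among all tested members, in Dlk1. This paternally expressed gene (ENSMUSG00000040856, chromosome 12, 109452823 to 109463336) encodes a transmembrane protein of the Notch ligand family that keeps precursor cells undifferentiated. Dlk1 stood at 172, 368 and 231 CPM in controls, 77.3, 152 and 87.0 CPM with DNMT3a siRNA, and 173, 271 and 216 CPM with DNMT3b siRNA. All DNMT3a libraries lay below all others, although the library numbered 2 was the highest of each group. The mean was 2.44-fold lower with DNMT3a siRNA (log2 -1.29 ± 0.35 SE), which missed the threshold (adjusted p = 0.0625).

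Within library numbers the Dlk1 difference was even. The DNMT3a library over the control library of the same number gave log2 ratios of -1.15, -1.28 and -1.41, and the paired fit called the fall (log2 -1.28, adjusted p = 4.35e-05). Without pairing it passed in DESeq2 (0.0114) and limma-voom (0.0255), with a filter of 1 CPM (0.0465), without DNMT3a 2 (0.0285) and without all libraries numbered 2 (0.00374). With DNMT3b siRNA the value was -0.22 ± 0.35 (adjusted p = 0.767), and the knockdowns differed by -1.06 ± 0.35 (adjusted p = 0.108), a difference that passed without DNMT3a 2 (0.0438) and without all libraries numbered 2 (0.00556).

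The maternally expressed noncoding RNAs of the same domain were not called by edgeR over all 9 libraries. Meg3, which starts at the domain's secondary control region, stood at 574, 517 and 779 CPM in controls, against 841, 597 and 855 CPM with DNMT3a siRNA (log2 0.29 ± 0.21, adjusted p = 0.447). With DNMT3b siRNA it stood at 453, 723 and 600 CPM (log2 -0.07 ± 0.21, adjusted p = 0.881). The knockdowns differed in Meg3 by 0.37 ± 0.21 (adjusted p = 0.313), or by 0.69 without the libraries numbered 2 (0.0488). Rian and Mirg, host transcripts of small RNAs, had log2 fold changes of 0.02 ± 0.10 and 0.10 ± 0.17 with DNMT3a siRNA and of -0.01 ± 0.10 and 0.14 ± 0.17 with DNMT3b siRNA. Rian was among the most evenly measured members, with a 95% interval of -0.20 to 0.24 for DNMT3a siRNA. Rtl1, a retrotransposon-derived gene expressed from the paternal allele, had values of 0.04 ± 0.25 and -0.05 ± 0.25. The log2 ratio of Dlk1 to Meg3 averaged -1.33 ± 0.72 in controls and -2.90 ± 0.81 after DNMT3a siRNA (SD, n = 3), with no overlap (exact permutation test, two-sided, p = 0.1, adjusted p = 0.3 over 12 ratio comparisons). A design of 3 against 3 cannot give a p below 0.1.

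**Figure D4:**
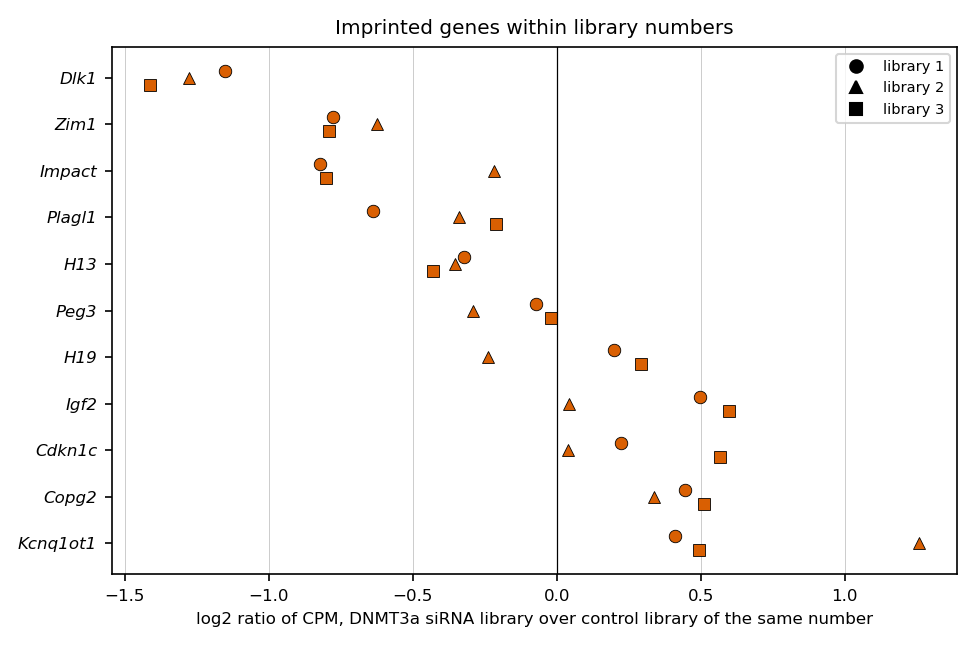
Log2 ratio of CPM in each DNMT3a siRNA library over the control library of the same number, for 11 imprinted genes, with the marker shape giving the number. The 3 Dlk1 ratios lie between -1.41 and -1.15, Zim1, Impact, Plagl1 and H13 are below 0 in all 3 numbers, and Copg2 and Kcnq1ot1 are above 0 in all 3.

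The paired fit called 3 further members as lower with DNMT3a siRNA, of which DESeq2 without pairing also called Impact (adjusted p = 0.00687) and Zim1 (0.0184). Impact, a paternally expressed regulator of translation under amino acid shortage (ENSMUSG00000024423), stood at 115, 74.6 and 106 CPM in controls, 65.2, 64.2 and 60.8 CPM with DNMT3a siRNA, and 105, 70.8 and 69.4 CPM with DNMT3b siRNA. Its DNMT3a libraries were below every control library, with a log2 fold change of -0.64 ± 0.19 (adjusted p = 0.0625; 0.0173 in the paired fit). It passed without control 2, the lowest control (0.0114), without DNMT3b 1 (0.0234), and without all libraries numbered 2 (0.0319). Zim1, a maternally expressed zinc-finger gene of the Peg3 cluster, stood at 25.9, 40.2 and 25.7 CPM in controls, against 15.1, 26.0 and 14.8 CPM with DNMT3a siRNA. DNMT3a 2 overlapped the controls, and the log2 fold change was -0.71 ± 0.25 (adjusted p = 0.116; 0.00456 in the paired fit; 0.0149 without DNMT3a 2). Plagl1 stood at 749, 1038 and 884 CPM in controls, against 482, 821 and 764 CPM with DNMT3a siRNA, with overlapping groups. Its log2 fold change was -0.37 ± 0.21 (adjusted p = 0.308; 0.0243 in the paired fit).

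The growth pair Igf2 and H19 on chromosome 7 varied more between libraries of a group than between groups. These genes share enhancers and a control region that is methylated on the paternal copy, so that H19 is maternal and Igf2 paternal. H19 stood at 862, 2937 and 874 CPM in controls, 989, 2491 and 1070 CPM with DNMT3a siRNA, and 1509, 2348 and 2263 CPM with DNMT3b siRNA. Igf2 stood at 946, 2362 and 611 CPM, 1335, 2435 and 926 CPM, and 1553, 2275 and 2380 CPM in the same order. Library 2 was the highest of the control and DNMT3a groups for both genes, and over all 9 libraries neither knockdown differed beyond this spread (H19 log2 -0.04 ± 0.58 and 0.39 ± 0.58, Igf2 0.26 ± 0.55 and 0.66 ± 0.55). Without the libraries numbered 2, H19 passed as higher with DNMT3b siRNA than in controls (log2 1.11, adjusted p = 0.00997). H19 was also higher there than with DNMT3a siRNA (log2 -0.87 for DNMT3a against DNMT3b, adjusted p = 0.0219). As these libraries were singled out by such values, this is a description only. The log2 ratio of Igf2 to H19 averaged -0.23 ± 0.33 in controls, 0.06 ± 0.33 after DNMT3a siRNA and 0.02 ± 0.06 after DNMT3b siRNA. The difference with DNMT3a siRNA was 0.30 (exact permutation test, two-sided, p = 0.4, adjusted p = 0.6). Of the 40 members, 7 varied by at least 2-fold within the control libraries, beside 14.4% of all tested genes.

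Igf2r separated the knockdowns from each other but not from control. It stood at 1064, 1285 and 991 CPM in controls, 892, 1085 and 753 CPM with DNMT3a siRNA, and 1254, 1396 and 1378 CPM with DNMT3b siRNA. Against control it differed by -0.29 ± 0.14 in log2 with DNMT3a siRNA (adjusted p = 0.226) and 0.27 ± 0.14 with DNMT3b siRNA (adjusted p = 0.295), and the DNMT3a libraries were 1.48-fold below the DNMT3b libraries (log2 -0.56 ± 0.14, adjusted p = 0.0318). That call was lost without DNMT3a 1 (0.113), DNMT3a 3 (0.105), DNMT3b 1 (0.0554), DNMT3b 2 (0.117) or DNMT3b 3 (0.110). Airn, the paternally expressed antisense RNA that silences Igf2r in cis, had values of 0.18 ± 0.19 and 0.50 ± 0.19 (adjusted p = 0.615 and 0.148). The log2 ratio of Igf2r to Airn averaged 6.33 ± 0.03 in controls and 5.87 ± 0.09 after DNMT3a siRNA, without overlap (exact permutation test, two-sided, p = 0.1, the smallest possible, adjusted p = 0.3). The genes overlap on opposite strands over 28354 bases.

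Ddc rose with DNMT3b siRNA while its neighbour Grb10 did not. Ddc (ENSMUSG00000020182, chromosome 11, 11814101 to 11898144) encodes the decarboxylase that makes dopamine and serotonin, and a transcript of it is paternally expressed in the embryonic heart. Ddc stood at 15.3, 18.6 and 15.8 CPM in controls, 15.6, 24.3 and 21.0 CPM with DNMT3a siRNA, and 31.5, 32.6 and 31.6 CPM with DNMT3b siRNA. The DNMT3b libraries were nearly equal and lay above all the rest. The rise was 1.93-fold (log2 0.95 ± 0.15 SE, adjusted p = 0.00450) and passed under all 18 alternatives. With DNMT3a siRNA the value was 0.30 ± 0.15 (adjusted p = 0.244), and the knockdowns differed by -0.65 ± 0.15 (adjusted p = 0.0202). This difference missed the threshold without DNMT3a 1 (0.0571), DNMT3a 3 (0.0568), DNMT3b 1 (0.0510), DNMT3b 2 (0.0804) or DNMT3b 3 (0.0687). Grb10, which is maternal in most tissues and paternal in neurons, stood between 1652 and 2028 CPM in all 9 libraries (log2 0.07 ± 0.10 and 0.14 ± 0.10).

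In the Prader-Willi and Angelman region of chromosome 7 the unpaired edgeR fit with the usual filter and scaling called no member. DESeq2 called Ube3a (adjusted p = 0.0146) and Ndn (0.0132) as lower with DNMT3b siRNA. So did edgeR with a filter of 1 CPM (0.0417 and 0.039) or with DESeq2 size factors (0.0468 and 0.0478). Ube3a, the ubiquitin ligase that is maternally expressed in neurons, stood at 118, 116 and 113 CPM in controls, 90.2, 105 and 99.1 CPM with DNMT3a siRNA, and 103, 84.3 and 87.7 CPM with DNMT3b siRNA. Both knockdowns lay below all controls, with log2 fold changes of -0.24 ± 0.09 (adjusted p = 0.130) and -0.34 ± 0.09 (adjusted p = 0.0556). Ndn, a paternally expressed MAGE-family gene, stood at 89.8, 86.5 and 83.7 CPM in controls, 81.0, 82.3 and 78.0 CPM with DNMT3a siRNA, and 76.2, 71.6 and 69.0 CPM with DNMT3b siRNA. Its values were -0.11 ± 0.07 (adjusted p = 0.394) and -0.26 ± 0.07 (adjusted p = 0.0583). With DNMT3b siRNA both genes passed without DNMT3a 2 (Ube3a 0.0405, Ndn 0.0491) or DNMT3b 1 (0.0214 and 0.0473). Snrpn, a spliceosome gene whose promoter is the control region, had values of 0.24 ± 0.18 and 0.41 ± 0.18, and Mkrn3, a makorin gene, of -0.15 ± 0.20 and 0.45 ± 0.19. Snrpn overlaps Snurf on the same strand, which had 0 counts in every library, so its level is uncertain.

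Nnat and Blcap, nested on opposite strands of chromosome 2, had differences of opposite sign with DNMT3a siRNA, neither of them called. Nnat, a paternally expressed membrane protein gene, stood at 40.3, 25.5 and 22.4 CPM in controls, against 21.7, 19.8 and 21.6 CPM with DNMT3a siRNA (log2 -0.49 ± 0.19, adjusted p = 0.136). With DNMT3b siRNA it stood at 27.2, 31.5 and 31.4 CPM (log2 0.03 ± 0.19, adjusted p = 0.950). The knockdowns differed in Nnat by -0.51 ± 0.19 (adjusted p = 0.116), which passed without control 1 (0.0119) and in a fit of only these 2 groups (0.0104). Blcap, a small membrane protein gene, stood at 47, 42.5 and 50.0 CPM in controls, 59.9, 48.8 and 60.6 CPM with DNMT3a siRNA, and 42.7, 41.4 and 42.0 CPM with DNMT3b siRNA. It differed from control by 0.28 ± 0.10 with DNMT3a siRNA (adjusted p = 0.106; 0.0346 without DNMT3a 2), and the knockdowns differed by 0.43 ± 0.10 (adjusted p = 0.0244). That difference missed the threshold without DNMT3a 1 (0.105), DNMT3a 3 (0.0898), DNMT3b 1 (0.0552), DNMT3b 2 (0.0998) or DNMT3b 3 (0.0944).

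The members of the Peg10 and Peg3 clusters not yet described were not called against control by the unpaired edgeR fit over all 9 libraries. Peg10, a retrotransposon-derived gene needed in placenta, stood at 217, 81.6 and 90.7 CPM in controls, 180, 93.2 and 91.7 CPM with DNMT3a siRNA and 95.3, 84.4 and 77.0 CPM with DNMT3b siRNA, with library 1 the highest of each group. Sgce, the sarcoglycan gene that shares its promoter region, was even at 60.0 to 70.4 CPM over all 9 libraries. Ppp1r9a, an actin-binding scaffold gene, and Asb4, an ankyrin repeat gene, were higher in all DNMT3b libraries than in any control, at log2 fold changes of 0.35 ± 0.11 (adjusted p = 0.0918) and 0.55 ± 0.21 (adjusted p = 0.166). Ppp1r9a passed without control 3 (0.0370) and with the library number as a block (0.0378). Peg3, a zinc-finger regulator, had values of -0.14 ± 0.15 and -0.26 ± 0.15. Usp29 had values of -0.32 ± 0.48 and 0.51 ± 0.45.

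The other single loci were not called by edgeR over all 9 libraries. Gnas, the stimulatory G protein locus with transcripts from each allele, stood at 90.8, 126 and 126 CPM in controls, 114, 97.8 and 114 CPM with DNMT3a siRNA, and 97, 174 and 161 CPM with DNMT3b siRNA. Library DNMT3b 1 lay apart from the others of its group. The log2 fold changes of Gnas were -0.07 ± 0.21 and 0.33 ± 0.21, and the knockdowns differed by -0.40 ± 0.21 (adjusted p = 0.269), or by -0.62 without DNMT3b 1 (0.0357). Inpp5f, a phosphoinositide phosphatase gene, had values of 0.01 ± 0.08 and -0.16 ± 0.08. Trappc9, a vesicle tethering gene, had values of -0.18 ± 0.08 (adjusted p = 0.171) and -0.11 ± 0.08 (adjusted p = 0.467), and all 6 knockdown libraries lay below the 3 controls. Zrsr1, a splicing factor retrogene inside Commd1, had values of 0.05 ± 0.13 and 0.18 ± 0.13. Nap1l5, a retrogene inside Herc3, stayed near 1 CPM or below, at 0.69 ± 0.43 and 0.26 ± 0.45.

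The called genes came from both parental classes of the annotation. The maternal class holds genes such as Ube3a, named above as maternal in neurons. Which allele each gene expressed in these cells was not measured. Of 15 tested maternally expressed members, Copg2 rose with DNMT3a siRNA, and the paired fit and DESeq2 added Zim1 as lower. With DNMT3b siRNA the unpaired edgeR fit called 0 of the 15, where 4 had an unadjusted p under 0.05. DESeq2 called Cdkn1c and Ube3a, and limma-voom called 0. The median log2 fold changes of the class were 0.10 and 0.03. Of 20 tested paternally expressed members, Kcnq1ot1 rose with DNMT3a siRNA, the paired fit added Dlk1, Impact and Plagl1 as lower, and DESeq2 added Dlk1 and Impact. With DNMT3b siRNA Mest and Ddc rose, and DESeq2 added Kcnq1ot1 as higher and Ndn as lower. The medians of this class were -0.01 and 0.13. The remaining 5 have transcripts from different alleles: Grb10, Gnas, Blcap, H13 and Inpp5f. Of the 14 members whose promoter lies in a germline control region, Kcnq1ot1 rose with DNMT3a siRNA and Mest with DNMT3b siRNA, and the paired fit added Impact and Plagl1 as lower with DNMT3a siRNA. Their medians were -0.01 and 0.13. These counts are to be read beside the 10.1% and 5.64% of all tested genes, 14.3% in the paired fit, or 2237 and 1692 of 16258 genes in DESeq2.

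The promoters of the imprinted genes held more CpG than all RefSeq promoters, a set that was not limited to tested genes. RefSeq windows of 300 bases on GRCm38.p6 were found for 39 of the 46 counted members, some with several starts. The median was 14 CpG dinucleotides over the members' 55 windows and 7 over all 32851 windows of the table. Members with a promoter in a germline control region had a median of 11.5, and the other members 15. At least 1 ZFP57 hexamer on either strand lay in the windows of 6 of 11 genes with a promoter in a germline control region: Mest, Mcts2, Nap1l5, Nnat, Plagl1 and Snrpn. It lay in 5 of 28 other members (Copg2, Grb10, Igf2, Meg3 and Zim1) and in 13.1% of all genes in the table. Among the members called against control in the unpaired fit, Mest and Copg2 held the hexamer, and Kcnq1ot1, H13 and Ddc did not in these windows. Of those the paired fit added, Zim1 and Plagl1 held it, Dlk1 did not, and no window was used for Impact.

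The genes that keep imprints showed no call against control in the unpaired edgeR fit. Of 25 such genes, 23 were tested, including Dnmt1, Uhrf1, Zfp57, Trim28 and Ctcf. In that fit 0 were called in either knockdown, beside 10.1% and 5.64% of all tested genes, so few calls were to be had among 23 genes. An unadjusted p under 0.05 was found for 2 and 4 of them, beside 4127 and 3556 of all 16561 tested genes. DESeq2 called 0 with DNMT3a siRNA and 1, lower, with DNMT3b siRNA, and limma called 0 in both. Their log2 fold changes lay between -0.21 and 0.22 with DNMT3a siRNA and between -0.31 and 0.25 with DNMT3b siRNA. Zfp57 stood at 53.3 to 67.5 CPM in controls, and Dnmt1 at 130 to 165 CPM. Between the knockdowns Kdm1b, a histone demethylase needed for imprints in the oocyte, was higher with DNMT3a siRNA (log2 0.45 ± 0.12, adjusted p = 0.0443). That call was lost without control 1 (0.0529), control 3 (0.0536), DNMT3a 1 (0.144), DNMT3a 3 (0.139), DNMT3b 2 (0.171) or DNMT3b 3 (0.170).

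Among 22 tested imprinted genes outside the 47, 5 passed with DNMT3a siRNA (2 higher, 3 lower), beside 10.1% of all tested genes, and 3 with DNMT3b siRNA (2 higher, 1 lower), beside 5.64%. Kcnq1 was the largest rise in both and passed under all 18 alternatives. So did the fall with DNMT3a siRNA of Phactr2, a phosphatase and actin regulator gene next to Plagl1 (log2 -0.47 ± 0.08, adjusted p = 0.00418). Dcn, a collagen-binding proteoglycan gene that is also one of the fibroblast markers above, fell in both (log2 -0.89 ± 0.18, adjusted p = 0.0128 and 0.0183). Its call with DNMT3a siRNA was lost without control 3 (0.0522) or DNMT3a 1 (0.0567), and that with DNMT3b siRNA without control 1 (0.0693), control 3 (0.0768), DNMT3b 2 (0.0876) or DNMT3b 3 (0.0827). Tfpi2, a protease inhibitor gene, fell with DNMT3a siRNA (log2 -1.09 ± 0.25, adjusted p = 0.0202), a call lost without DNMT3a 1 (0.0727) or DNMT3a 3 (0.0762). Adam23, a cell adhesion gene, rose with DNMT3b siRNA (log2 1.01 ± 0.20, adjusted p = 0.0149), a call lost without control 3 (0.0549), DNMT3b 2 (0.0674) or DNMT3b 3 (0.0913). Between the knockdowns 1 gene was higher and 4 were lower with DNMT3a siRNA, beside 9.55% of all tested genes. Of these Gab1, higher, and Phactr2 and Adam23, lower, passed under all 18 alternatives.

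Of 81 tested protein-coding genes next to the clusters, up to 3 on each side, 9 passed with DNMT3a siRNA (4 higher, 5 lower). With DNMT3b siRNA 4 passed (3 higher, 1 lower). Of all tested genes 10.1% and 5.64% passed. The neighbours can be imprinted themselves: Phactr2 is in this list and among the 22 genes above, and its calls count in both. Tnfrsf26, a decoy receptor gene near the Kcnq1 domain, was at 2.28 to 3.60 CPM in controls, against 0.667 to 1.15 CPM with DNMT3a siRNA (log2 -1.82 ± 0.27, adjusted p = 0.00208), which held under all 18 alternatives. Nelfcd, a transcription elongation gene near Gnas, rose with DNMT3a siRNA (log2 0.40 ± 0.09, adjusted p = 0.0188), a call lost without control 3 (0.0722), DNMT3a 1 (0.0688) or DNMT3a 2 (0.0645). With DNMT3b siRNA Slc25a13, a mitochondrial carrier gene, rose (log2 0.63 ± 0.13, adjusted p = 0.0171; lost without control 3, DNMT3b 2 or DNMT3b 3, at 0.0585 to 0.0806). Pdk4, a kinase that limits glucose oxidation, rose too (log2 0.74 ± 0.18, adjusted p = 0.0359; lost without control 1, control 3, DNMT3b 2 or DNMT3b 3, at 0.0926 to 0.163). Osbpl1a, a lipid-binding protein gene beside Impact, fell (log2 -0.41 ± 0.10, adjusted p = 0.0313; lost without control 1, control 3, DNMT3a 1, DNMT3b 2 or DNMT3b 3, at 0.0523 to 0.149). Between the knockdowns 6 neighbours were higher and 6 lower with DNMT3a siRNA, beside 9.55% of all tested genes. The tRNA synthetase gene Wars (log2 0.56 ± 0.10, higher) and the syntaxin gene Stx16 (log2 -0.46 ± 0.08, lower) passed under all 18 alternatives.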

How the data were processed

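RNA was counted in 9 libraries, 3 for each siRNA. For each library the authors deposited a table of raw read counts per gene, whole numbers that were not normalized. The submitters' processing notes name FastQC, TopHat2, HTSeq and mm10/GRCm38. For the annotation release and strand setting, nothing was given in the sources used here. Summary lines of uncounted reads, 49.2% to 56.2% of each table's total, were left out.

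Symbols, coordinates and exon lengths came from GENCODE mouse annotation release M21. Genes were kept by filterByExpr (minimum count 10, minimum total 15), scaled by TMM and fitted in edgeR 4.0.16 (R 4.3.3) by robust quasi-likelihood with group as the only term, over all 9 libraries (6 residual degrees of freedom). Two-sided F tests were adjusted by Benjamini-Hochberg over 16561 genes, with 0.05 as the threshold for a call. Each standard error was the fold change divided by the root of its F statistic. The script was tested on simulated data.

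All members were named whatever their values, with Dnmt3a, Dnmt3b and up to 4 called genes per further list and comparison. The result of 1 gene is not reported here. Members and lists were chosen with earlier results of these data known. The labels do not say what a library number marks. Deviations from group means correlated between same-numbered control and DNMT3a libraries (r = 0.498, 0.585 and 0.558), so the paired fit is given beside that comparison. That fit had group and number as terms over all 9 libraries, those with DNMT3b siRNA included. Alternatives used DESeq2 1.42.0 and limma 3.58.1, other scalings and filters, and fewer libraries.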

Additional observations from a re-analysis of the deposited data

How the results depend on the processing

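Over the alternatives no called imprinted gene changed direction. The lost calls named above are mainly those with single libraries left out. Without the libraries numbered 2, edgeR also lost Tfpi2 (adjusted p = 0.0540, DNMT3a siRNA), Kdm1b (0.0817, between the knockdowns), and Slc25a13 (0.0571) and Pdk4 (0.056, DNMT3b siRNA). Fits of only the compared groups lost Kcnq1ot1 (0.0520) and Nelfcd (0.0666) with DNMT3a siRNA and Osbpl1a (0.0583) with DNMT3b siRNA. Library size alone lost Igf2r between the knockdowns (0.0504). With DNMT3a siRNA the count of 3 called members was 5 of 36 with a filter of 1 CPM (1687 of 14181 tested genes called) and 6 with DESeq2 (2237 of 16258). It was 5 without the libraries numbered 2 (1290 of 16554) and 7 with the library number as a block, and ran from 1 to 5 when single libraries were left out. With DNMT3b siRNA the count of 2 was 4 with DESeq2 size factors (965 of 16561 tested genes called), 4 of 36 with the 1 CPM filter (982 of 14181) and 6 with DESeq2 (1692 of 16258). It was 4 without the libraries numbered 2 (1266 of 16554) and 7 with the block, and ran from 1 to 5. Between the knockdowns the count of 5 was 10 without the libraries numbered 2 (1529 of 16554 tested genes called) and 8 with the block, and ran from 0 to 7. For these last 2 comparisons the numbers are not taken as pairs: r was 0.267, 0.158 and 0.00459 between DNMT3b and control libraries, where library 3 correlated better with control 2 (0.160), and 0.119, 0.0727 and 0.00354 between the knockdowns. Over all tested genes the block gave 2370 in place of 1671 calls with DNMT3a siRNA, 1801 in place of 934 with DNMT3b siRNA, and 2513 in place of 1582 between the knockdowns. With DNMT3b siRNA the 2 higher and 1 lower of the further imprinted genes became 3 and 3 both with DESeq2 and with the block, and the 3 higher and 1 lower of the neighbouring genes became 3 and 7 with DESeq2 and 4 and 5 with the block. The cause of these moves was not tested. With 3 libraries a group, depth limits the 6 members under the filter and thinly read ones.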
